A study of Mus musculus with 12 samples.

Results

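The 10 genes described here are 9 genes by which microglia are recognized in mouse brain, namely Csf1r, Cx3cr1, P2ry12, Tmem119, Aif1, Trem2, C1qa, C1qb and C1qc, together with Tlr4, the receptor for bacterial lipopolysaccharide. They were chosen by name among the 55418 genes of a brainstem count table, and all 10 had enough counts to be tested in every comparison. RNA came from the brainstem of 12 outbred CFW mice, each 15 days old, with 1 library per mouse. The 3 females and 3 males of the morphine group received 15 mg/kg morphine, and the 3 females and 3 males of the saline group received saline, 2 times a day from postnatal day 1 through day 14. Tissue was taken 16 h after the last injection, when the exposed mice were in spontaneous withdrawal, so exposure and withdrawal cannot be told apart in these groups. The labels carry no allele or transgene and do not say which mice shared a dam, so p-values measure the spread between these mice, some of which may be littermates.

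Microglia are the resident macrophages of the brain, and they enter it from the yolk sac before birth. Their survival depends on the receptor encoded by Csf1r, which binds the ligands Csf1 and Il34. The chemokine receptor Cx3cr1 receives neuronal Cx3cl1, and P2ry12 senses nucleotides released by injured cells. Tmem119 and P2ry12 are typical of resting microglia, whereas Aif1, which encodes the actin-binding protein Iba1, is also made by other macrophages. Trem2 is a lipid-sensing receptor that signals through Tyrobp. The products of C1qa, C1qb and C1qc are the chains of C1q, which starts the classical complement pathway and tags synapses during development. Tlr4 acts with Cd14 and Ly96 and signals through Myd88, and it has been studied as a possible site of opioid action on glia. Tlr4 is also made by border macrophages and endothelium, so it is less specific than the other members.

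The members lay on 6 chromosomes of the mouse genome (GRCm38), and the C1q genes stood side by side on chromosome 4. C1qb occupied chr4:136880129-136886187, C1qc chr4:136889804-136893065 and C1qa chr4:136895917-136898803, all on the minus strand, and Tlr4 lay on the plus strand of the same chromosome at chr4:66827584-66930284. Tmem119 was at chr5:113793729-113800516 and P2ry12 at chr3:59216272-59262871 on the minus strand, the latter inside Med12l, which lies on the plus strand. Cx3cr1 was at chr9:119901616-120069879, Aif1 at chr17:35170991-35176068 and Trem2 at chr17:48346401-48354147. Reads were counted over exons.

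The members differed widely in base composition. The longest protein-coding transcript held 59.5% G and C in C1qa, 59.1% in Tmem119, 57.5% in Trem2 and C1qc, 57.4% in C1qb, 54.5% in Csf1r, 51.4% in Aif1, 50.3% in Cx3cr1, 39.4% in Tlr4 and 38.6% in P2ry12. For the most GC-rich pair and the most GC-poor pair, the 90 bases of coding sequence closest to the composition of the whole coding sequence are shown, from the GRCm38 annotation, with G and C in capitals. They are bases 2 to 91 of the C1qa coding sequence, 9 to 98 of Tmem119, 112 to 201 of P2ry12 and 84 to 173 of Tlr4, each read 5′ to 3′ on the gene's strand.
C1qa: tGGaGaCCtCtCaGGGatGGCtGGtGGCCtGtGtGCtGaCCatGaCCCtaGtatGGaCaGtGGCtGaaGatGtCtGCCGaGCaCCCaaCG
Tmem119: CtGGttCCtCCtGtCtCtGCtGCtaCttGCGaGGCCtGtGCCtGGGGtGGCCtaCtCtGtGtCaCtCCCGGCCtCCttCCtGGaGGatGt
P2ry12: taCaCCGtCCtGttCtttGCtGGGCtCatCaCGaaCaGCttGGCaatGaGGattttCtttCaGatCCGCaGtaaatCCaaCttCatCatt
Tlr4: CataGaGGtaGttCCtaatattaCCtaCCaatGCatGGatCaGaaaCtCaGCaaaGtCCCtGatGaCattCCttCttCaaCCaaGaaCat

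Capitals fill 58.9% of the C1qa stretch and 62.2% of the Tmem119 stretch, against 44.4% for P2ry12 and 40.0% for Tlr4. The RefSeq promoter table (GRCm38.p6, 250 bases before to 50 after the start) held 6 of the 10 members. PU.1, encoded by Spi1, is an ETS factor that microglia need, and the PU.1-type core GAGGAA was present on either strand in 4 of these 6 promoters and in 28.3% of the 32851 promoters in the table. The longer form GAGGAAGT, which contains that core, was present in 1 of 6, that of C1qc, and in 3.2% of all. The 2 C1q promoters in the table are shown because these genes are neighbours. They are given as the 250 bases before the start with the core in capitals (read from the other strand it is TTCCTC). The C1qb stretch is chr4:136886201-136886450 and the C1qc stretch chr4:136892915-136893164, both read on the minus strand, 5′ to 3′.
C1qb: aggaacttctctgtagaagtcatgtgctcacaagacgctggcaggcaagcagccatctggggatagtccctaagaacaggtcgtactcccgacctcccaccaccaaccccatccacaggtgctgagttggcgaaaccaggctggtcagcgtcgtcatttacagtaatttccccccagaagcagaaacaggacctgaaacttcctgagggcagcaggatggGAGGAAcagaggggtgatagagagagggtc
C1qc: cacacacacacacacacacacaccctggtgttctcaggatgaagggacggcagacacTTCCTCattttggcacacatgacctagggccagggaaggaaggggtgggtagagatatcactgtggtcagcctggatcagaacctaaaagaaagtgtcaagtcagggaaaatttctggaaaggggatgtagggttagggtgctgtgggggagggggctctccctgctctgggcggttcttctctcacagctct

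The 2 promoters share the core but not its place or strand, at 30 bases before the start in C1qb and 193 before it in C1qc. These matches describe letters in a window and were not tested as binding sites.

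Library totals ran from 27850565 to 48097947 counts, and the members drew from 64 counts (Tlr4, lowest library) to 3266 counts (Csf1r, highest library) each. Levels are given as CPM, counts scaled to the library total after TMM normalization. The tissue label says brainstem, while the extraction text in the labels speaks of spinal cord, so markers were checked: Tph2, which serotonin neurons of the raphe need, was at 19.7 to 41.9 CPM in the 12 libraries and Dbh, of noradrenergic neurons, at 3.37 to 9.64 CPM, while each of 5 Hox genes of the thoracic and lumbar spinal cord had at most 3 counts in any library. Of the 20 further microglia genes listed, all 20 were detected and tested. 1 library went against its label: the library labelled morphine male 6 held 380 CPM of Xist, against 0.399 to 2.65 CPM in the other males, and 12.8 CPM of Ddx3y, against 115 to 199 CPM. The female libraries held 550 to 979 CPM of Xist and at most 0.734 CPM of Ddx3y, so this library lay between the sexes in both genes. It was kept in its labelled group, and the main fit of males is given with and without it. The library was kept in the later fits with offsets for GC content and length and in those without saline male 3. It was also kept in the contrast from all 12 mice.

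Divided by the length of the longest protein-coding transcript, P2ry12 was the most abundant member at 19.9 ± 2.91 CPM per kb (SD, n = 12), and it exceeded Csf1r in 12 of 12 mice. Csf1r (11.0 ± 1.94), C1qa (9.99 ± 4.84), Cx3cr1 (9.81 ± 1.07) and C1qb (8.89 ± 3.41) formed a middle group on the same per-kilobase scale whose neighbours did not separate beyond their spread. C1qa, for example, had the higher mean but exceeded Cx3cr1 in only 3 of 12 mice. C1qc (4.57 ± 1.76 CPM per kb) stood below C1qb in 12 of 12 mice and was followed by Tmem119 (4.21 ± 2.08), Trem2 (3.67 ± 1.08) and Aif1 (3.29 ± 0.635), each above the next in 8 or 9 of 12 mice. Tlr4 was the lowest, at 0.685 ± 0.126 CPM per kb, and was below Aif1 in 12 of 12 mice. Among the genes tested, these levels placed P2ry12 at the 82.2nd percentile and Tlr4 at the 21.9th.

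The mice differed far more in some members than in others. Cx3cr1 and P2ry12 varied 1.41-fold and 1.49-fold between the lowest and the highest mouse, and Tlr4 1.71-fold. C1qa varied 4.73-fold, Tmem119 4.32-fold, C1qb 3.36-fold, C1qc 3.09-fold and Trem2 3.02-fold. In each of these 5 genes saline males 2 and 1 held the highest and second-highest values of all 12 mice, as the plot of CPM in each mouse shows.

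**Figure D1:**
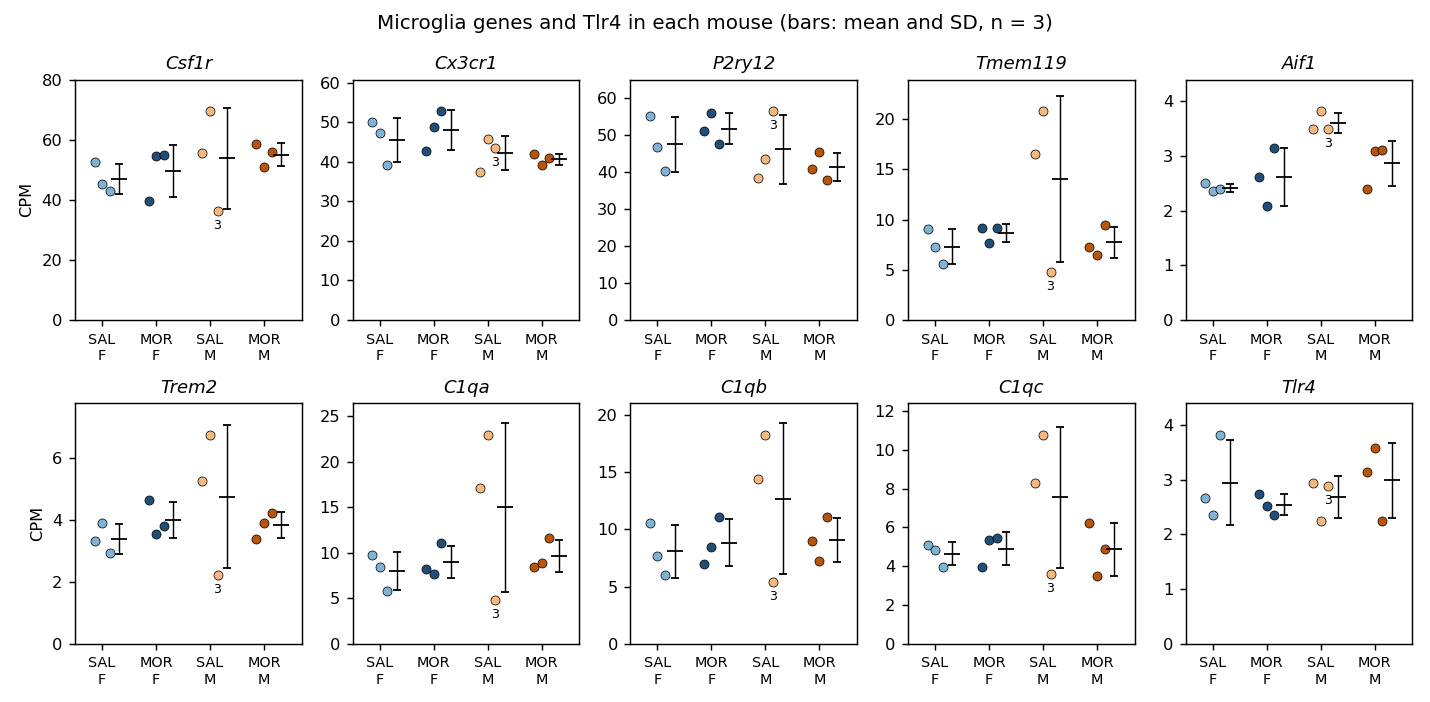
CPM (vertical axis, starting at 0) of each member in each of the 12 mice, by treatment (SAL, saline; MOR, morphine) and sex (F, M); points are mice, bars give the mean and SD (n = 3 per group) and 3 marks saline male 3. Saline males 1 and 2 lie above and saline male 3 below the other mice in Tmem119, Trem2 and C1qa, whereas Cx3cr1, P2ry12 and Tlr4 show no such split.

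The first comparison asked whether morphine-exposed mice differed from saline mice with both sexes combined and sex in the model. A DE gene was defined by an unadjusted p under 0.05 and an absolute log2FC above 0.26. None of the 10 members met this definition. Of all 18608 genes tested 1.19% met this definition, and none of the genes passed at an adjusted p under 0.05. With the threshold on p alone edgeR's quasi-likelihood test passed 0 members, and exactTest and DESeq2 also called 0.

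Csf1r, at chr18:61100598-61132149, shared 15.1% of its exon bases with Hmgxb3 on the other strand, and because the strand setting of the counting is not given in the sources used here, reads from that stretch could belong to either gene. For Cx3cr1 and P2ry12 the part shared with another gene was 1.73% and 0.35%, and the other members shared none.

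Of the receptors that keep and guide microglia, Csf1r had a mean of 50.5 ± 11.6 CPM in saline and 52.5 ± 6.72 CPM in morphine mice (SD, n = 6), a log2FC of 0.057 with a 95% interval from -0.25 to 0.36. Cx3cr1 stood at 43.8 ± 4.803 and 44.4 ± 5.26 CPM, with a log2FC of 0.013 (-0.18 to 0.21). P2ry12 stood at 46.8 ± 7.60 and 46.5 ± 6.65 CPM, with a log2FC of -0.016 (-0.27 to 0.23). For these 3 abundant receptors the intervals end within 0.37 of 0 on the log2 scale. Only that of Cx3cr1 stayed inside the log2FC threshold of 0.26 in both directions. The interval of Csf1r passed this threshold at its upper end (0.36) and that of P2ry12 at its lower end (-0.27). A change as large as the threshold was therefore not excluded in Csf1r or P2ry12.

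The intervals of the GC-rich members were wider. Tmem119 was at 10.7 ± 6.51 CPM in saline and 8.19 ± 1.23 CPM in morphine mice, a log2FC of -0.32 (-0.998 to 0.37). The C1q chains had log2FC of -0.24 for C1qa (-0.91 to 0.43), -0.18 for C1qb (-0.76 to 0.40) and -0.28 for C1qc (-0.83 to 0.26). Trem2 (-0.041, interval -0.54 to 0.46), Aif1 (-0.12, interval -0.43 to 0.20) and Tlr4 (-0.028, interval -0.40 to 0.34) lay nearer 0. Over the 10 members 2 log2FC were positive and 8 negative with a median of -0.078, while over all genes tested the median was -0.020 and 57.4% were negative. The tally was 5 and 5 without saline male 2 (median -0.0072) and with total counts in place of TMM (-0.030), and the median was -0.155 without saline male 3. In bulk tissue fewer microglia and less RNA per microglial cell cannot be told apart.

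In females none of the members was a DE gene either (1.81% of 18109 genes were). All 9 microglia genes had a log2FC above 0, from 0.075 in Csf1r to 0.24 in Tmem119, and Tlr4 had -0.22, a median of 0.11 over the 10 against -0.0058 over all genes tested. This direction was not stable: 4 of 10 were above 0 without morphine female 3 (median -0.0017), 6 without saline female 6 (0.021) and 6 with offsets for GC content and length (0.036), an alternative explained further on. Tmem119 was at 9.10, 7.25 and 5.57 CPM in saline females and at 9.21, 7.63 and 9.12 CPM in morphine females, so the groups overlapped. Its log2FC of 0.24 (-0.18 to 0.65) did not pass, but without saline female 4 it was 0.42 and passed (interval 0.027 to 0.82, adjusted p = 0.609), in a fit that called 5.62% of 18631 genes higher. Tlr4 was at 2.67, 2.35 and 3.83 CPM in saline and 2.74, 2.52 and 2.36 CPM in morphine females, and the single high value was that of saline female 6. Here too edgeR's quasi-likelihood test passed 0 members on p alone, and exactTest and DESeq2 called 0.

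In males the members split by composition. Tmem119 was at 16.6, 20.8 and 4.82 CPM in saline males 1, 2 and 3 and at 7.27, 6.48 and 9.43 CPM in morphine males 4, 5 and 6. Saline males 1 and 2 therefore exceeded every morphine male, and saline male 3 was below every morphine male. The log2FC of -0.89 had an interval from -2.05 to 0.28 and did not pass (adjusted p = 1.00).

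C1qa repeated this order with 17.1, 22.9 and 4.85 CPM in saline males against 8.47, 8.85 and 11.6 CPM in morphine males (log2FC -0.66, interval -1.86 to 0.54). C1qb was at 14.4, 18.3 and 5.43 CPM in saline males and at 8.98, 7.24 and 11.1 CPM in morphine males (log2FC -0.51, interval -1.51 to 0.50). C1qc was at 8.27, 10.8 and 3.62 CPM in saline and at 6.23, 3.49 and 4.91 CPM in morphine males (log2FC -0.66, interval -1.64 to 0.32). In C1qc morphine male 5 was below saline male 3. Trem2 was at 5.28, 6.77 and 2.24 CPM in saline males and between 3.38 and 4.23 CPM in morphine males (log2FC -0.34, interval -1.25 to 0.58).

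Of the other members only Csf1r shared part of that order. P2ry12 was at 38.4, 43.5 and 56.5 CPM in saline males, so that saline male 3 was here the highest of all 12 mice, and at 40.9, 45.3 and 37.9 CPM in morphine males (log2FC -0.18, interval -0.61 to 0.25). Aif1 was at 3.50, 3.82 and 3.50 CPM in saline males and at 2.40, 3.09 and 3.10 CPM in morphine males. Every saline male exceeded every morphine male in Aif1, and saline male 3 lay with the others. The log2FC of -0.36 did not pass (interval -0.83 to 0.11, adjusted p = 1.00). With 3 mice against 3 no exact permutation p can be under 0.1, so a separation alone shows little. How many of all genes separate in this way was not counted. The same limit holds wherever 2 groups of 3 mice do not overlap. Cx3cr1 had a log2FC of -0.084. Csf1r was at 55.65, 69.7 and 36.39 CPM in saline males and at 58.76, 50.94 and 55.9 CPM in morphine males. Its log2FC was 0.0073 (interval -0.55 to 0.57). In Csf1r saline male 2 was the highest and saline male 3 the lowest of all 12 mice, but saline male 1 lay among the morphine males. Tlr4 was at 2.94, 2.24 and 2.89 CPM in saline males and at 3.14, 3.59 and 2.25 CPM in morphine males, with a log2FC of 0.13 (-0.45 to 0.71).

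None of the members was a DE gene in males, where 2.99% of 18166 genes were and none passed at an adjusted p under 0.05. On p alone edgeR's quasi-likelihood test passed 0 members, and exactTest and DESeq2 called 0, while Tmem119 was called with the contrast taken from the fit of all 12 mice (log2FC -0.87, interval -1.73 to -0.0024, adjusted p = 0.935), where 2.07% of 19027 genes were called lower. Their median log2FC was -0.35, beside -0.064 over all genes. It was -0.18 without saline male 2, where Tmem119 had -0.49 and C1qa -0.21, and -0.16 with offsets for GC content and length. Without the library labelled morphine male 6 the log2FC ran from -1.07 in Tmem119 to 0.29 in Tlr4, and still none passed.

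Leaving out saline male 3 changed this account. Tmem119 then had a log2FC of -1.26 (adjusted p = 0.0114), C1qa -1.04 (adjusted p = 0.0159), C1qc -0.96 (adjusted p = 0.0385), C1qb -0.83 (adjusted p = 0.035) and Trem2 -0.64 (adjusted p = 0.067), and all 5 were DE genes with lower levels in morphine males. In the same fit 18.8% of 18652 genes were DE genes with lower levels, so the 5 calls stood in a fit that called a large part of the genome. Leaving out any other mouse gave 0 calls among the members in males.

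Base composition moved with this split. Across the 18608 genes tested, the deviation of a library from the mean of the 12 correlated with GC content with r = 0.594 in saline male 1, 0.692 in saline male 2 and -0.683 in saline male 3, as a description over genes that share each library. Genes with at least 55% GC had a median deviation of 0.65 on the log2 scale in saline male 2 and of -0.64 in saline male 3. In the other 9 libraries r lay between -0.520 (saline female 6) and 0.490 (morphine male 6).

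The members' ratios were higher at higher GC content, though not in strict order, since C1qb exceeded Trem2 and C1qc. The ratio of saline males 1 and 2 to saline male 3 was 4.05-fold in C1qa, 3.82-fold in Tmem119, 2.96-fold in C1qb, 2.63-fold in Trem2, 2.58-fold in C1qc and 1.71-fold in Csf1r. It was 1.04-fold in Aif1, 0.955-fold in Cx3cr1, 0.892-fold in Tlr4 and 0.723-fold in P2ry12. Over the 10 members the log2 ratio and GC content had r = 0.897, over the 20 other microglia genes r = 0.820 and over all genes tested r = 0.763. Among the other microglia genes the GC-rich Selplg, Spi1 and Tyrobp had log2 ratios of 2.01, 2.00 and 1.67, and the GC-poor Gpr34 had -0.78. What produced the gradient was not tested.

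**Figure D2:**
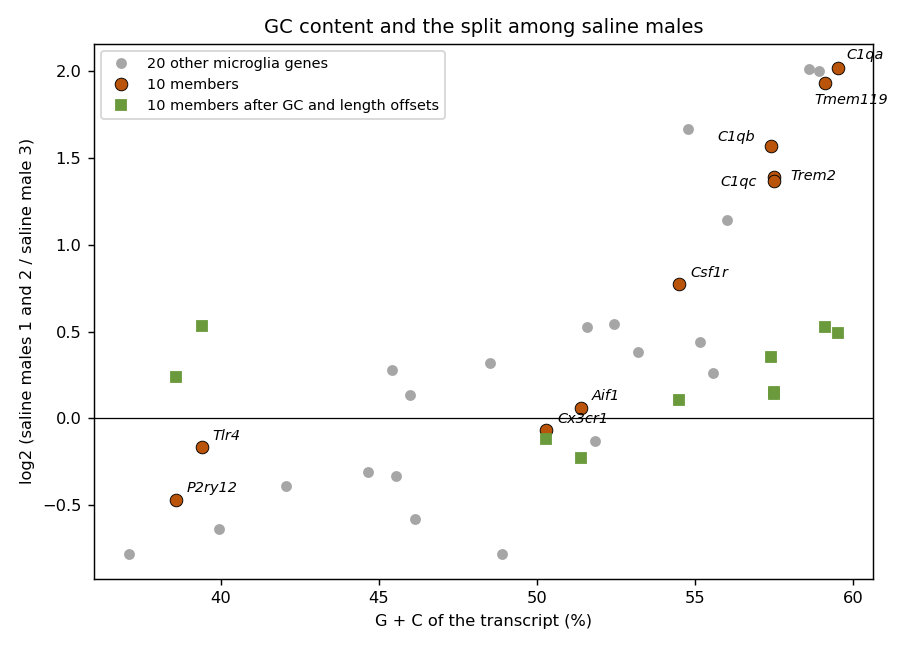
For each member (large circles) and 20 other microglia genes (grey), the G and C share of the transcript in percent (horizontal axis) and the log2 ratio of the mean of saline males 1 and 2 to saline male 3 (vertical axis); squares give the members after offsets for GC content and length. The ratio climbs from -0.47 in P2ry12 to 2.02 in C1qa, and after the offsets the members lie between -0.23 and 0.53.

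Offsets that removed each library's trend with GC content and transcript length, an alternative chosen after seeing the data, narrowed the members' spread. The SD of log2 CPM over the 12 mice dropped from 0.61 to 0.19 in C1qa, from 0.60 to 0.22 in Tmem119, from 0.51 to 0.21 in C1qb, from 0.48 to 0.26 in C1qc and from 0.40 to 0.15 in Trem2. It was 0.21 before and after in P2ry12 and 0.16 before and after in Cx3cr1. Tmem119 then stood at 10.7, 12.1 and 7.89 CPM in saline males and at 7.50, 7.19 and 7.82 CPM in morphine males, so that every saline male exceeded every morphine male, saline male 3 by little.

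With the offsets Tmem119 was a DE gene in males (log2FC -0.47, interval -0.84 to -0.091, adjusted p = 0.464), in a fit in which 2.71% of genes were DE genes with lower levels. It was the only member so called. C1qa had -0.16, C1qb -0.17, C1qc -0.32 and Trem2 0.0018, each with an interval that included 0. With the offsets and without saline male 3, Tmem119 had -0.62 (adjusted p = 0.0095) and C1qa -0.30 (adjusted p = 0.132), and both were called, when 9.61% of 18652 genes were called lower. The plot of log2FC with intervals shows how far the estimates of the GC-rich members moved between these fits and, between the 3 fits of males, how little those of Cx3cr1 and Aif1 did.

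**Figure D3:**
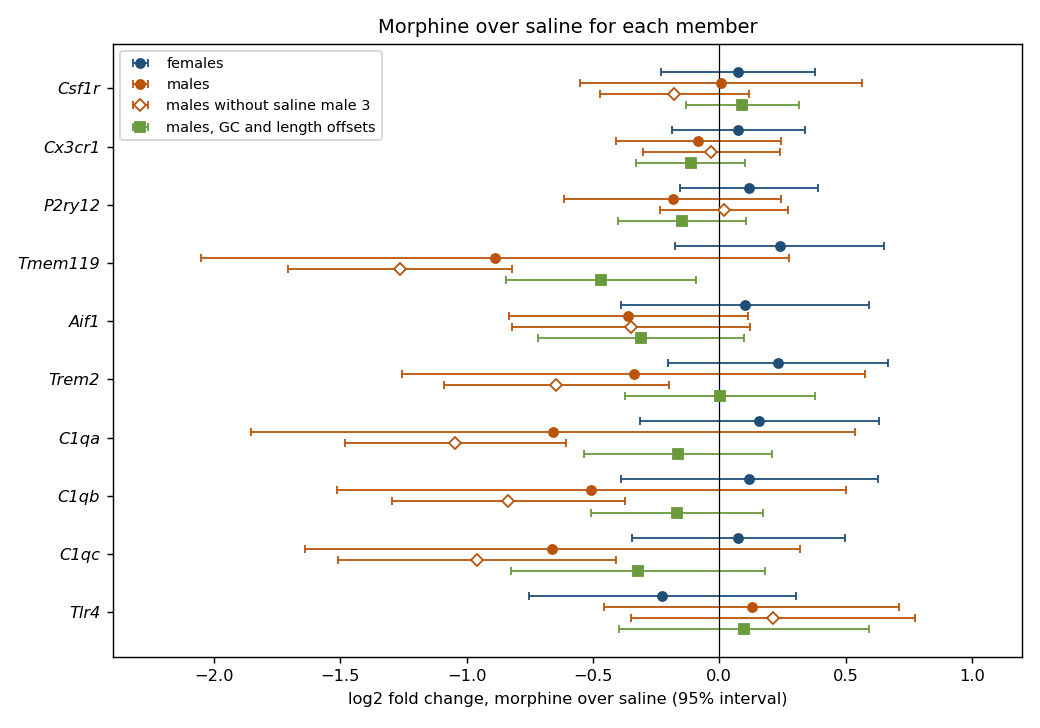
Log2 fold change of morphine over saline (horizontal axis) with 95% intervals for each member, in females, in males, in males without saline male 3 and in males with offsets for GC content and length. For Tmem119 the 4 estimates are 0.24, -0.89, -1.26 and -0.47, and for Cx3cr1 all 4 lie within 0.12 of 0.

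Whether the change differed between the sexes was tested as an interaction, coded as the log2FC of males less that of females. No member was a DE gene (2.94% of 19027 genes were), none passed on p alone in edgeR's quasi-likelihood test, and DESeq2 called 1, Tmem119 (difference -1.14, adjusted p = 0.999), where 2.04% of genes were called lower. The largest differences in size were those of Tmem119 (-1.11, interval -2.34 to 0.11, adjusted p = 0.985), C1qa (-0.80, interval -2.09 to 0.49) and C1qc (-0.72, interval -1.76 to 0.32). Tlr4 was the only member with a difference above 0 (0.37, interval -0.37 to 1.11). Without the library labelled morphine male 6 Tmem119 had -1.28 (interval -2.63 to 0.062).

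Without saline male 3 the 5 genes called in males were called here too, with differences from -0.92 in Trem2 to -1.54 in Tmem119, when 18.4% of 19472 genes were called with a lower change in males. With the offsets for GC content and length Tmem119 alone was called (-0.56, interval -1.02 to -0.11, adjusted p = 0.749), when 3.39% of genes were called in that direction. The differences of the C1q chains were then -0.14 to -0.26 with intervals that included 0.

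The sexes were compared over both treatments. Aif1 was lower in females than in males by a log2FC of -0.36 (interval -0.67 to -0.042, adjusted p = 0.734) and was the only member among the 3.94% of 18608 genes that met the definition. It was at 2.50, 2.35 and 2.40 CPM in saline females against 3.50 to 3.82 CPM in saline males, without overlap, and at 2.62, 2.09 and 3.14 CPM in morphine females against 2.40 to 3.10 CPM in morphine males, with overlap. The call held with the GC and length offsets (-0.36, interval -0.63 to -0.077) and without the library labelled morphine male 6 (-0.36, interval -0.71 to -0.0016). It was lost, with log2FC between -0.35 and -0.31, when saline male 1, saline male 2, saline female 4, saline female 5 or morphine female 2 was left out.

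Without saline male 3, Csf1r (-0.29), C1qa (-0.70), C1qb (-0.52) and C1qc (-0.50) were called lower in females beside Aif1 (-0.37), in a fit that called 17.6% of 18911 genes lower in females. Cx3cr1 (0.17) and P2ry12 (0.18) were the only members with estimates above 0 in females, and neither passed (intervals -0.021 to 0.37 and -0.070 to 0.43).

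Among themselves the members fell into 2 patterns over the 12 mice. The 10 pairs formed by Tmem119, Trem2 and the C1q chains had Pearson's r of log2 CPM from 0.711 to 0.964 with a median of 0.908, and Csf1r had 0.643 to 0.871 with these 5. P2ry12 and Cx3cr1 correlated with each other (r = 0.634), whereas P2ry12 had r between -0.443 and -0.348 with the 5 GC-rich genes. With the offsets, r over the same 10 pairs ran from -0.475 to 0.791 with a median of 0.333, while P2ry12 with Cx3cr1 stayed at 0.663. All these values share the 12 libraries and are given as a description.

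**Figure D4:**
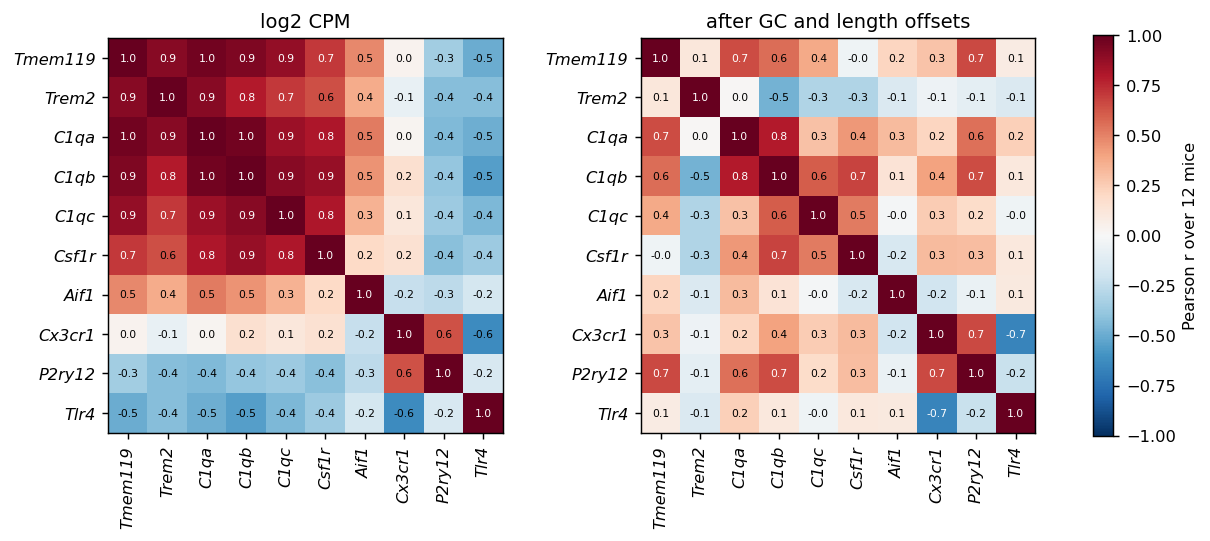
Pearson's r of log2 CPM over 12 mice for each pair of members (colour scale from -1 to 1), before (left) and after (right) offsets for GC content and length. The block of high r at the upper left, Tmem119 to C1qc, spans 0.711 to 0.964 before the offsets and -0.475 to 0.791 after them.

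The C1q chains were tested as a family of 3 pairs. C1qa and C1qb had r = 0.964 (permutation p = 1e-05, the smallest that 100000 permutations can give, adjusted p = 3e-05) and rho = 0.930 (permutation p = 7e-05, adjusted p = 2.1e-04). C1qb and C1qc had r = 0.908 (permutation p = 7e-05, adjusted p = 1.05e-04) and rho = 0.846 (adjusted permutation p = 0.00143). C1qa and C1qc had r = 0.855 (permutation p = 8.6e-04, adjusted p = 8.6e-04) and rho = 0.650 (adjusted permutation p = 0.0256). Without the 2 mice farthest from the median, saline males 1 and 2, r was 0.911 for C1qa with C1qb, and 0.525 for C1qa with C1qc (adjusted permutation p = 0.123), so the latter relation rested on those mice. With the offsets C1qa and C1qb kept r = 0.791, and C1qa with C1qc had 0.291.

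The makeup of the trio varied less than its amount. C1qa took 39.9 ± 3.62% of the trio's counts (SD, n = 12), C1qb 38.1 ± 1.92% and C1qc 21.9 ± 3.08%, while the summed level ran from 13.9 CPM in saline male 3 to 52.0 CPM in saline male 2. The lowest C1qa share was that of saline male 3, 34.9% of 453 counts (95% Wilson interval 30.6 to 39.4%), and the highest that of morphine male 5, 45.2% of 595 counts (41.2 to 49.2%). These intervals cover counting error only. The mean C1qa share was 38.4 ± 1.84% in saline females, 39.6 ± 3.71% in morphine females, 40.7 ± 5.04% in saline males and 41.0 ± 4.81% in morphine males (n = 3 each), so the largest difference between means was within the SD of 3 of the 4 groups but above that of saline females.

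Tlr4 did not track the microglia genes. Its r with the 9 others over the 12 mice lay between -0.628 (Cx3cr1) and -0.162 (P2ry12), and none of the 9 passed after adjustment. For Cx3cr1 the permutation p was 0.0298 (adjusted p = 0.243), rho was -0.594 (permutation p = 0.0464, adjusted p = 0.185), and r fell in size to -0.451 without saline female 6 and morphine male 5. With the offsets the r with Cx3cr1 was -0.661 and those with Csf1r, Tmem119, Aif1, C1qa and C1qb were above 0, from 0.0832 to 0.237. The 5 genes most like Tlr4 over the 12 mice by r were Kif27 (0.935), A030001D20Rik (0.899), Trpm3 (0.876), Gabrb2 (0.873) and Zfp111 (0.871), none of them a listed microglia gene. The 5 most like the mean of the C1q chains were Wars (0.986), Surf4 (0.985), Rhot2 (0.984), Klhl26 (0.984) and Ly6h (0.983). None of these was a listed microglia gene either. Among 18605 genes in likeness to the C1q mean, Tmem119 ranked 251, Csf1r 2939, Trem2 3185 and Aif1 6077. Cx3cr1 ranked 8091 (r = 0.099) and P2ry12 12006 (r = -0.41), so a lack of tracking was not particular to Tlr4.

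The partners of the members were read from lists. Of the 7 ligands and partners, 6 were tested and 0 were DE genes in the sex-combined data, in females or in males. Csf1 had a log2FC of 0.044 sex-combined, and Il34, the neuronal ligand of Csf1r, -0.21. The neuronal ligand Cx3cl1 had -0.015, and Tyrobp, which pairs with Trem2, had -0.10 sex-combined, 0.11 in females and -0.34 in males. Without saline male 3 Tyrobp (-0.68), Il34 (-0.59) and Cx3cl1 (-0.38) were called lower in males in the fit described above. Il34 was lower in females than in males (log2FC -0.44, adjusted p = 0.734). This call held in 4 of 12 fits with 1 mouse left out, with log2FC from -0.60 to -0.33, and was lost without saline male 1 or 2, saline female 4, 5 or 6, morphine female 2 or 3, or morphine male 6. It was also lost with the GC and length offsets (-0.17).

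Of the 24 genes of the Tlr4 pathway all were tested and 0 were DE genes in the sex-combined data or in females. In males 1 was, Lbp, the serum protein that hands lipopolysaccharide to Cd14. Lbp was at 3.82, 4.95 and 3.25 CPM in saline males and at 7.66, 8.56 and 5.59 CPM in morphine males, without overlap, a log2FC of 0.83 (SE 0.25, adjusted p = 1.00). It remained called in all 6 fits that left out 1 male. Lbp was at 1.66, 2.20 and 6.94 CPM in saline females and at 1.45, 1.68 and 2.59 CPM in morphine females, and the interaction of 1.78 passed (SE 0.64, adjusted p = 0.985) but was 0.84 and did not pass without saline female 6. Over both treatments Lbp was lower in females (-1.03, adjusted p = 0.734), except that the call was lost without morphine female 1 or 2.

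The other core parts of the receptor complex did not pass. Cd14, the co-receptor, had a log2FC of -0.48 sex-combined (SE 0.23, adjusted p = 1.00), and it was called without saline male 3 or without saline female 6, with estimates from -0.61 to -0.32 over the 12 fits. It was also called with the GC and length offsets, sex-combined (-0.47) and in males (-0.54). Ly96, which binds lipopolysaccharide beside Tlr4, had -0.098, and the adaptor Myd88 had -0.044.

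Of 14 cytokines and inflammatory enzymes 4 were tested, and 0 were DE genes in the sex-combined data, in females or in males. The transcripts of Tnf and Il1b, classical products of activated microglia, had at most 3 and 8 counts in any library, so a change in them was not detectable at this depth. Of 15 complement genes beyond C1q, 0 were DE genes in the sex-combined data or in males, and C3, the central component, and C4b had log2FC of -0.17 and 0.22 sex-combined. C4b has the near-identical copy C4a, between which reads can be split.

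In females the protease C1s1 (-0.71) and the C1 inhibitor Serping1 (-0.64) were lower in the morphine group, each with an adjusted p = 1.00. C1s1 lost its call without morphine female 1 or 3 (log2FC over the 6 fits -0.88 to -0.58), and Serping1 without saline female 5 or 6 or morphine female 1 or 3 (-0.91 to -0.39). C1s1 was also called in the interaction (1.03, SE 0.39), except without saline male 1, morphine female 3 or morphine male 5. C1s1 and Serping1 act on the C1 complex that C1q forms, while the C1q chains had log2FC between 0.076 and 0.16 in the same females, values that turned to between -0.071 and -0.025 with the GC and length offsets.

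The 20 other microglia genes held 0 DE genes in the sex-combined data, in females and in males, with medians of -0.056, 0.067 and -0.20. Of 17 tested genes of activated and phagocytic microglia, 0 were DE genes in the sex-combined data and in males. Of 16 tested in females 1 was, the growth factor Igf1 (-0.38, adjusted p = 1.00), which was not called without saline female 5 or 6 or morphine female 1 or 3 (-0.50 to -0.20). Over both treatments Cd53 was higher in females (0.30, called in 3 of 12 fits with 1 mouse left out, 0.23 to 0.39, and not with the GC and length offsets, 0.20) and Lgals3, a galectin of phagocytes, was lower in females (-0.60, called in all 12 such fits).

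Some markers of other immune cells were lower in morphine mice beside these results. Of the 6 monocyte genes 4 were tested and 2 fell in the sex-combined data, the chemokine receptor Ccr2 (-1.12, SE 0.40) and Chil3 (-1.34, SE 0.46). Of the 8 neutrophil genes 5 were tested and 2 fell, the calprotectin chains S100a8 (-1.30, SE 0.36) and S100a9 (-1.08, SE 0.40), and the adjusted p of all 4 rounded to 1.00. Ccr2, Chil3 and S100a8 were called in all 12 fits that left out 1 mouse, and S100a9 in 11, the exception being without saline female 5 (-0.78).

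Within females Ccr2 (-1.41), S100a8 (-1.45), S100a9 (-1.49) and Ltf (-1.58) fell, and within males S100a8 (-1.20) did. Of these, Ccr2 was called in all 6 fits that left out 1 female, S100a8 and S100a9 lost their call without saline female 5 or morphine female 1, and Ltf also without morphine female 3. In males S100a8 was between -0.56 and -1.499 over the 6 fits and lost its call without saline male 3 or any morphine male. The interaction called Ltf (2.05) and the border macrophage gene Ms4a7 (1.43), in 4 and 2 of the 12 fits with 1 mouse left out.

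These transcripts were rare. The summed level of the monocyte list was 3.08 to 5.84 CPM in saline females, 2.11 to 2.84 in morphine females, 3.32 to 5.43 in saline males and 2.90 to 3.93 in morphine males. That of the neutrophil list was 4.43 to 14.1, 1.94 to 5.02, 5.25 to 13.9 and 3.95 to 7.37 CPM in the same order. The 10 members summed to 153 to 201 CPM in saline females, 172 to 201 in morphine females, 164 to 245 in saline males and 172 to 181 in morphine males. No gene of either list was at 0 in every library, and the part of these cells in the members' values was not tested.

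Of the 10 border macrophage genes all were tested and 1 fell in the sex-combined data, Lyve1 (-0.51, SE 0.22). It was called in 6 of 12 fits with 1 mouse left out (-0.65 to -0.41), and not without saline male 3, saline female 4 or 6, morphine female 1 or 3, or morphine male 6. The list summed to 73.4 to 98.3 CPM in saline females, 56.4 to 86.9 in morphine females, 63.8 to 91.8 in saline males and 74.0 to 95.3 in morphine males. Over both treatments the border macrophage gene Stab1 (-0.69) and the neutrophil gene Camp (-1.14) were lower in females, each except without saline male 2, and Stab1 also except with the GC and length offsets (-0.35). The endothelium, pericyte, astrocyte and neuron lists held 0 DE genes in the sex-combined data, in females and in males. Of 8 oligodendrocyte genes the myelin gene Cldn11 fell in the sex-combined data (-0.29, not without saline male 2 or morphine male 4) and, with Mobp (-0.42, called in 2 of 6 fits with 1 male left out), in males (-0.49). Of 6 brainstem genes Hoxb2 fell in the sex-combined data (-0.47, called in 5 of 12 fits with 1 mouse left out, -0.56 to -0.25, and not with the offsets, -0.44).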

How the data were processed

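Single-end reads of 100 bases from poly-A libraries were trimmed (Trimmomatic), mapped to mm10 (STAR) and assigned to Ensembl GRCm38 exons (featureCounts) by the authors, with versions not given in the sources used here. They deposited whole-number counts per gene, which the paper calls normalized but which were treated as raw because their totals differ between libraries, in 1 table of 12 libraries with totals of 27850565 to 48097947 counts. Groups came from the labels for treatment and sex. The members and all gene lists were chosen with earlier results of these data known. Low-count genes were removed with filterByExpr, libraries were scaled by TMM, and comparisons were fitted with edgeR 4.0.16 (glmQLFit and glmQLFTest, R 4.3.3): treatment with sex as a covariate, each sex alone, the interaction, and sex with treatment as a covariate. This test replaced the study's exactTest, which was run as an alternative with DESeq2 1.42.0. DE genes were called at unadjusted p under 0.05 with log2FC beyond 0.26 in either direction, and adjusted p followed Benjamini and Hochberg over all genes tested. Intervals are 95%. Log2 CPM used a prior count of 2. Correlations used 100000 two-sided permutations, adjusted over 9 pairs for Tlr4 and 3 for C1q. The offsets for GC content and length were lowess smooths (span 0.5) per library. All 10 members are described in every comparison. From each list the text names the DE genes of a comparison, at most 5 by p, and the partners Csf1, Il34, Cx3cl1, Tyrobp, Cd14, Ly96, Myd88, Tnf, Il1b, C3 and C4b, besides the 5 genes most correlated with Tlr4 and with the C1q mean. Other genes named within the fit without saline male 3 or the GC comparison were chosen after their values were seen. Some genes that this rule would name are not reported here. GC content, lengths and coordinates came from the GENCODE annotation of GRCm38, in which 55341 of 55418 genes matched. The fits were tested on simulated data.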

Additional observations from a re-analysis of the deposited data

Results flagged for a closer look

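None of the 10 members passed the test of a difference between the sexes in the response to morphine. Of the genes listed beside them 4 did by an unadjusted p under 0.05, leaving aside those that check sex. Each had an adjusted p = 0.985 in edgeR's quasi-likelihood test. In the same fit 2.94% of all 19027 genes tested were DE genes, so these 4 are given as a description. Xist, which checks the sex of the libraries, was called too (6.28). For Lbp, the lipopolysaccharide-binding partner of the Tlr4 complex, the log2FC of males less that of females was 1.78 (SE 0.64). For C1s1, the protease that works with C1q, it was 1.03 (SE 0.39). C1s1 was at 2.18, 1.90 and 1.97 CPM in saline females and at 1.201, 1.51 and 0.997 CPM in morphine females, without overlap, and at 1.07, 1.26 and 1.93 CPM in saline males and 1.44, 2.30 and 1.63 CPM in morphine males, with overlap. For the neutrophil gene Ltf the difference was 2.05 (SE 0.89) and for the border macrophage gene Ms4a7 1.43 (SE 0.63), and both genes were rare, with at most 1.152 CPM of Ltf and 0.856 CPM of Ms4a7 in any library. With offsets for GC content and length all 4 were still called. The differences were then 1.91 in Lbp, 0.96 in C1s1, 2.02 in Ltf and 1.46 in Ms4a7. With 1 mouse left out the call held in 11 of 12 fits for Lbp, 9 for C1s1, 4 for Ltf and 2 for Ms4a7. Without saline female 6 the difference in Lbp was 0.84 and was not called. In the 20 groups of 6 mice examined, no member had a mouse far from the others by Dixon's test at its 95% level. This test compares the extreme mouse with its nearest neighbour. It can therefore miss 2 high mice that lie together, such as saline males 1 and 2 in C1qa (17.08 and 22.94 CPM).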

How the results depend on the processing

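No member was called in the sex-combined comparison under any alternative, and in 880 recomputed log2FC of single members 795 kept direction and call, 54 changed sign (none larger than 0.18 in size), 25 gained a call and 6 lost one. In males 0 members were called, but 1 (Tmem119) without a filter on low counts, with the contrast from the fit of all 12 mice and with the GC and length offsets, 2 with those offsets and without saline male 3, and 0 to 5 when 1 mouse was left out. For the interaction the count was 1 without a filter, with DESeq2, and with the offsets with or without saline male 3, and 0 to 5 when 1 mouse was left out. Without a filter 478 of 34805 genes were called lower in males, and 1058 of 37483 for the interaction. With the offsets and without saline male 3, 1821 of 19472 genes were called lower for the interaction. Shares for the other fits of males and the interaction that called a member are given above. For the sex difference the 1 call became 0 at an adjusted p under 0.05 and 0 to 5 when 1 mouse was left out, and in females 0 to 1 were called when 1 mouse was left out. The cause of these shifts was not tested.

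Signs changed mostly near 0. With total counts in place of TMM the sex-combined log2FC was 0.034 in P2ry12, 0.00866 in Trem2 and 0.019 in Tlr4, that of Cx3cr1 in males 0.042 and the interaction of Csf1r 0.050. With the GC and length offsets the sex-combined log2FC was -0.0073 in Cx3cr1, 0.0040 in P2ry12 and 0.036 in Trem2. In females it was -0.034 in C1qa, -0.025 in C1qb and -0.071 in C1qc, in males 0.0018 in Trem2, for the interaction 0.060 in Csf1r and for the sex difference 0.061 in Trem2. With the offsets and without saline male 3 it was 0.015 in Trem2 sex-combined, -0.064 in Tlr4 in males and 0.022 in Csf1r for the interaction. Without a filter on low counts Csf1r had -0.0052 in males.

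When 1 mouse was left out, the sex-combined log2FC ran from -0.42 to 0.0059 in C1qa, -0.34 to 0.013 in C1qb, -0.054 to 0.16 in Csf1r, -0.056 to 0.047 in Cx3cr1, -0.097 to 0.059 in P2ry12, -0.12 to 0.077 in Tlr4 and -0.19 to 0.14 in Trem2. In females it ran from -0.048 to 0.24 in Aif1, -0.025 to 0.33 in C1qa, -0.072 to 0.35 in C1qb, -0.016 to 0.21 in C1qc, -0.0028 to 0.21 in Csf1r, -0.013 to 0.15 in Cx3cr1 and -0.36 to 0.020 in Tlr4. In males it ran from -0.18 to 0.23 in Csf1r, -0.31 to 0.018 in P2ry12 and -0.64 to 0.0045 in Trem2, for the interaction from -0.29 to 0.18 in Csf1r, and for the sex difference from -0.20 to 0.041 in Tlr4.

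With the offsets the correlation of Tlr4 was 0.105 with Csf1r, 0.0832 with Tmem119, 0.0950 with Aif1, 0.237 with C1qa and 0.109 with C1qb, and without the 2 farthest mice it was 0.0834 with P2ry12. C1qa with C1qc lost its call without the 2 farthest mice (r = 0.525) and with the offsets (0.291), as did C1qb with C1qc with the offsets (0.608).

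Saline and morphine mice share replicate numbers only across sexes. Deviations of same-numbered mice from their group means correlated at -0.356 to 0.180. These deviations carry each library's own trend with GC content, and the labels name no dam. Whether same-numbered mice shared a litter was therefore not tested. A replicate block with sex called 0 members in the sex-combined data and gave Trem2 0.023, against -0.041 without the block.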
